A study of Mus musculus with 12 samples.

Results

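P14 CTL that were TCR retriggered with PI3K p110δ blocked (TCR+PI3Kdi, n = 3) were compared with P14 CTL that were TCR retriggered alone (TCR, n = 3), so that 6 of the 12 samples of the series were compared, chosen by the treatment in their labels. P14 CTL are mouse CD8+ T cells with a transgenic TCR for the gp33 peptide of the LCMV glycoprotein, made here from female mice of 9 to 13 weeks, and according to the methods the lymph nodes or spleens of 3 mice gave the 3 replicates. The cells of every group had been activated for 48 h with peptide, IL-2 and IL-12, expanded in IL-2 at 20 ng per mL until day 7 and rested for 1 h, and IL-2 was present throughout, also in the unstimulated group. TCR cultures then received gp33 peptide at 100 ng per mL for 4 h, and TCR+PI3Kdi cultures received the same peptide for the same 4 h together with 10 µM of IC87114, a small molecule that inhibits PI3K p110δ, where DMSO was the vehicle. The series also holds 3 unstimulated cultures and 3 cultures retriggered with 2 µM of the MEK inhibitor PD184252 (TCR+MEKi), whose levels are given as a background. These other cultures were part of the fit and add to the estimate of the spread behind the p-values. The question put to these 6 samples was which mRNA of differentiated CTL depend on PI3K p110δ while the TCR is engaged. All cells carry a single receptor specificity and come from expanded cultures, which limits them as a model of a mixed T cell population, and the p-values below measure the spread between these cultures.

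PI3K p110δ is the main catalytic subunit of class I phosphoinositide 3-kinase in lymphocytes, and it makes the membrane lipid PIP3 when the TCR, CD28 or cytokine receptors are engaged. PIP3 recruits the kinase AKT and TEC family kinases, and AKT phosphorylates FOXO transcription factors, which then leave the nucleus. In T cells, genes for lymph node homing and quiescence that need FOXO1 are kept low while PI3K is active. AKT can also feed into mTORC1, which promotes protein synthesis, ribosome production and nutrient uptake. The authors cite earlier work of theirs in which mTORC1 of CD8 T cells did not need p110δ for its activity. In CTL the TCR induces a burst of cytokine, chemokine and TNF family ligand mRNA, and the granzyme and perforin mRNA that arm the cells are already high before it.

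The values are FPKM, fragments per kilobase of exon scaled for library size, for 11022 genes, and they are listed in the order of replicates 1, 2 and 3. The effective depth of the 6 samples, estimated from the steps between low values, was about 9740000 to 11760000 reads, and between 2 and 9 genes per sample were at 0. Values of log2(FPKM + 0.1) correlated between replicates of these groups with r from 0.992 to 0.994 across genes, which are not independent replicates. Of 8 CD8 T cell markers 7 were in the table, and their summed FPKM was 15438 to 16417 in the TCR samples and 14557 to 15375 with PI3Kdi. Of 4 B cell, 3 neutrophil and 3 erythroid markers 0 were among the 11022 genes, and Cd4 was at 2.54 to 2.87 FPKM in the TCR samples and at 1.96 to 3.65 FPKM with PI3Kdi. Of 10 macrophage or dendritic cell markers 3 were listed, with sums of 13.6 to 18.8 and 7.82 to 13.3 FPKM, where Cd74, at 7.68, 6.55 and 7.42 against 2.26, 1.57 and 2.93 FPKM, was the marker that passed the test, and its part in the results below was not tested. Csf2, Il1a, Il27, Il16, Tnfsf9, Spp1, Klrc1, Gbp7, Txnip, Odc1, Dusp5, Ccnd1 and Rb1 share more than 10% of their exon sequence or 100-base stretches with another gene, and whether counting used strand is not stated, so their reads may be split. In these bulk samples fewer cells of a kind and less mRNA per cell cannot be told apart.

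Differences are log2 changes of FPKM + 0.1 (TCR+PI3Kdi minus TCR) from limma with Benjamini-Hochberg adjusted p-values, and a gene was called at an adjusted p under 0.05 with more than a 2-fold change. PI3Kdi called 207 genes (1.88% of those tested), of which 55 were higher (0.499%) and 152 lower (1.38%). Most of the response was smaller than that: at an adjusted p under 0.05 with no demand on the size, 2818 genes (25.6%) differed, 1403 higher (12.7%) and 1415 lower (12.8%). These splits depended on the scale. When the samples were rescaled so that all had the same sum (TPM scale), the median of all genes rose from 0.02 to 0.19 on the log2 scale, 119 genes were called higher and 107 lower (52.7% higher, against 26.6% as deposited), and 3810 genes were higher and 556 lower at an adjusted p alone (87.3% higher, against 49.8%). The FPKM sum was 11.9% lower with PI3Kdi, so setting equal sums raises the values of those samples together. Medians and changes of single genes on the TPM scale below are therefore to be read against 0.19. A gene that passes on that scale alone may do so through this shift.

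**Figure D1:**
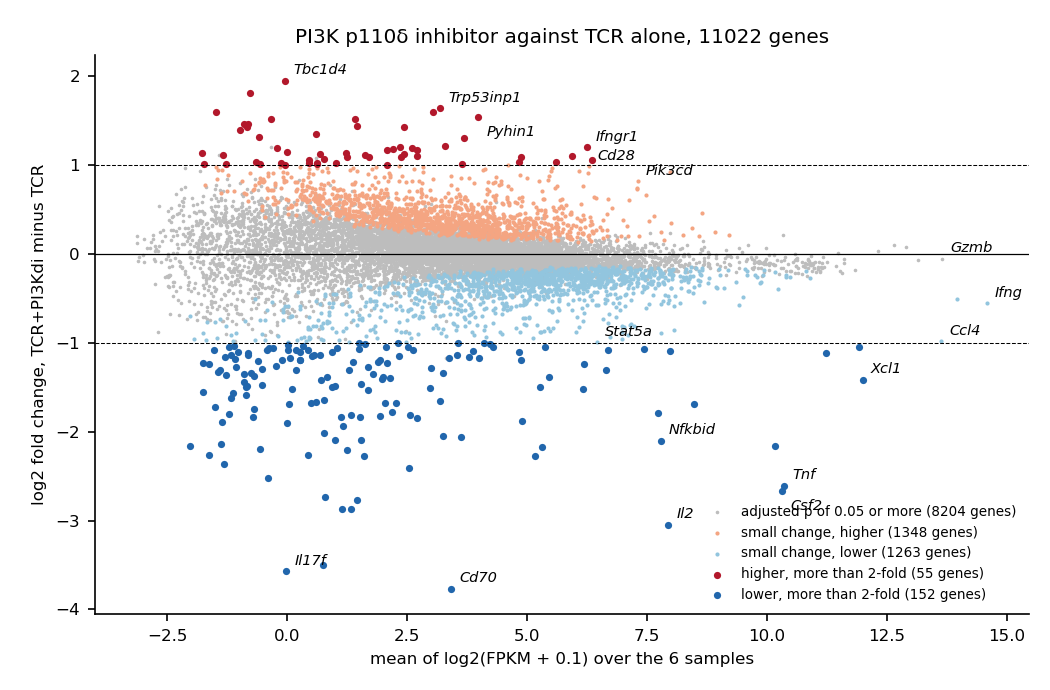
Each point is 1 of 11022 genes, with its mean log2(FPKM + 0.1) over the 6 samples on the x axis and its log2 fold change (TCR+PI3Kdi minus TCR) on the y axis. The 152 genes called lower reach below -3.5 and include highly expressed cytokine genes, the 55 called higher stay below 2, and the pale points are the small changes, which on the TPM scale are mostly higher (3810 genes higher and 556 lower at an adjusted p alone).

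PI3Kdi lowered the mRNA of secreted and membrane-bound ligands of the cytokine, chemokine and TNF families, which made up 10 of the 12 largest falls by the naming rule. Of 13 TNF superfamily ligands measured, 9 were lower and 1 was higher (6 called lower, 0 called higher, median log2 change -0.89). Likewise 28 of 37 cytokines and growth factors were lower and 1 was higher (19 called lower, median -1.08), and 9 of 11 chemokines were lower and 0 higher (6 called lower, median -1.002). On the TPM scale the medians of these 3 lists were -0.70, -0.90 and -0.82 and once quantile normalised -0.70, -0.89 and -0.42, so their direction stayed under both scalings.

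Among the TNF family ligands, which act on receptors of neighbouring cells, Cd70, the ligand of CD27 (chr17:57145997-57149777, GRCm38), was at 41.4, 38.3 and 38.4 FPKM in the TCR samples and at 2.61, 2.52 and 3.32 FPKM with PI3Kdi. The groups lay far apart with no overlap, and the unstimulated cultures were at 0.03 ± 0.052 FPKM (SD, n = 3). Its log2 change of -3.77 (SE 0.20, limma adjusted p = 3.4e-08) was the largest fall of any gene named here. Tnf itself was at 3026, 3186 and 3544 FPKM with TCR alone and at 434, 556 and 625 FPKM with PI3Kdi, a level still well above the 63.0 ± 7.02 FPKM of unstimulated cultures. Lta, encoding lymphotoxin α, went from 395 ± 33.1 to 114 ± 11.9 FPKM, beside 130.5 ± 10.8 FPKM unstimulated (log2 change -1.79, SE 0.12, limma adjusted p = 2.37e-07).

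The other TNF family ligands that fell covered costimulatory and effector ligands alike. Tnfsf9, the ligand of 4-1BB, was at 63.7, 62.0 and 68.0 FPKM against 20.3, 24.9 and 23.1 FPKM. Tnfsf14, encoding LIGHT, was at 248.99, 253 and 246 against 116, 116 and 125 FPKM. Both sets of samples were fully separate, with log2 changes of -1.501 and -1.07 (limma adjusted p = 4.39e-07 and 4.78e-08). Cd40lg, the ligand through which T cells act on CD40-bearing cells, fell from 112 ± 1.26 to 47.5 ± 2.47 FPKM, and Tnfsf11, encoding RANKL, from 301 ± 14.5 to 163 ± 5.21 FPKM, the latter short of 2-fold. Fasl, the death ligand by which CTL can kill, did not follow them: it was at 39.5, 38.4 and 41.0 FPKM with TCR alone and at 42.1, 42.1 and 43.6 FPKM with PI3Kdi (log2 change 0.10, SE 0.05, limma adjusted p = 0.17), although it passed on the TPM scale (0.29, adjusted p = 0.00186) and once quantile normalised (0.17, adjusted p = 0.0298). Tnfsf9, Tnfsf14 and Fasl were named after their values were seen.

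Among the interleukins, mRNA of several T helper programmes fell together, including some that CTL carried at low levels. Il2, the T cell growth factor, was at 649, 704 and 763 FPKM with TCR alone and at 64.5, 84.8 and 112 FPKM with PI3Kdi. Il3, a haematopoietic growth factor, was at 2850.1, 2346 and 2195 against 592, 519 and 529 FPKM. In both genes the highest sample with PI3Kdi lay below the lowest TCR sample by a wide margin, while unstimulated cultures were near 0 (0.0633 ± 0.11 and 0.0933 ± 0.0902 FPKM). Csf2, encoding GM-CSF, was at 3211, 3106 and 3299 against 449.9, 507 and 559 FPKM (log2 change -2.67, SE 0.15, limma adjusted p = 3.4e-08). Il10, an inhibitory cytokine, and Il24, a member of the same family, were at 3545 ± 302 and 636 ± 37.5 FPKM with TCR alone and at 1634 ± 130.2 and 198 ± 15.7 FPKM with PI3Kdi, with log2 changes of -1.12 and -1.68.

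Il23a, the p19 subunit of interleukin 23 (named after its values were seen), showed a fall of similar size with little spread, from 80.5, 76.5 and 79.6 FPKM to 14.7, 15.97 and 18.3 FPKM (log2 change -2.27, SE 0.09, limma adjusted p = 1.51e-09). Il13, typical of type 2 responses, was at 14.4, 11.1 and 14.5 against 2.74, 1.51 and 3.37 FPKM. Il22, a cytokine for epithelial cells, was at 8.01, 5.00 and 4.97 against 0.55, 0.84 and 0.78 FPKM. Il17f, of the Th17 programme, was at 3.65, 4.19 and 2.34 against 0.34, 0 and 0.43 FPKM. All of these separated the groups, with limma adjusted p of 3.94e-06 for Il13, 3.66e-07 for Il22 and 8.66e-05 for Il17f, and Il22 shares 20.4% of its 100-base stretches with Iltifb, so its reads may be split between both genes. Il21 (8.35 ± 0.883 to 2.38 ± 0.454 FPKM) and Il31 (57.1 ± 10.2 to 15.5 ± 2.89 FPKM), which were also named after their values were seen, fell as well, by 1.78 and 1.88 on the log2 scale. The member that rose was Il16, a chemoattractant made as a precursor in resting lymphocytes, at 11.8, 11.7 and 10.1 FPKM with TCR alone and at 16.6, 15.6 and 15.4 FPKM with PI3Kdi (log2 change 0.51, SE 0.08, limma adjusted p = 0.0004).

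The inflammatory cytokines Il6 and Il1a were present at low levels and fell strongly. Il6 was at 6.32, 5.65 and 9.85 FPKM with TCR alone and at 0.74, 0.74 and 1.56 FPKM with PI3Kdi. Il1a was at 7.37, 7.35 and 5.48 against 1.52, 0.46 and 0.77 FPKM. Both were at 0 in the 3 unstimulated cultures, and their changes were -2.76 (SE 0.31, limma adjusted p = 2.75e-05) and -2.87 (SE 0.36, adjusted p = 6.42e-05) on the log2 scale. Il27, a subunit gene of the cytokine of that name, was at 5.38, 4.57 and 6.80 against 0.43, 0.57 and 0.24 FPKM. The promoters of Il6 and Il1a are shown because both hold the AP-1 letters TGAGTCA, which FOS and JUN dimers bind, within the 250 bases before a RefSeq start. For Il1a the listed start used lies within the annotated gene (chr2:129299609-129310186), so its window overlaps the gene. Of the 8857 genes with a promoter in the RefSeq table, 3.87% hold these letters on either strand, as do 17 of 109 called lower (15.6%) and 3 of 34 called higher (8.82%), which is a description of these windows and not of binding. Il6 lies at chr5:30012864-30013113 on the plus strand of GRCm38.p6 and Il1a at chr2:129309973-129310222 on the minus strand, both are written 5′ to 3′ toward the gene, and capitals mark the motif (in Il1a its reverse complement).
Il6: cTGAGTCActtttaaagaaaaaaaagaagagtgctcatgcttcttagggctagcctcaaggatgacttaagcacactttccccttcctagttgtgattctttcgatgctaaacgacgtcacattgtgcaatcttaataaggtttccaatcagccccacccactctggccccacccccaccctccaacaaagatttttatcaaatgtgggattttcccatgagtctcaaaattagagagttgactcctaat
Il1a: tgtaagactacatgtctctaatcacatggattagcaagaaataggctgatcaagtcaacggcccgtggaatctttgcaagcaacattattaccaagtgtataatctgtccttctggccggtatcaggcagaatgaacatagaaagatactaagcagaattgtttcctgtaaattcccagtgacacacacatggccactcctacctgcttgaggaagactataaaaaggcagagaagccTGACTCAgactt

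Not all abundant ligand mRNA fell as far: Ifng changed by less than 2-fold, and Spp1 did not pass as deposited. Ifng, the main effector cytokine of CTL, was at 31000.0, 29548 and 28242 FPKM with TCR alone and at 21384, 19922 and 19172 FPKM with PI3Kdi, which left it the highest cytokine mRNA in both groups, and 25.9% of its exon sequence overlaps Gm49751 on the same strand. Its groups did not overlap and its log2 change was -0.55 (SE 0.09, limma adjusted p = 0.000372), and -0.37 on the TPM scale (adjusted p = 0.000362). Quantile normalisation sets values by rank and cannot show a change in Ifng, which ranked 1 in all 6 samples. Spp1, encoding osteopontin and named after its values were seen, was at 4765, 4964 and 5466 against 5099, 4994 and 5471 FPKM (log2 change 0.04, SE 0.12, adjusted p = 0.858, and 0.34 with adjusted p = 0.0213 once quantile normalised).

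Chemokine mRNA showed the same gradation, from strong falls in some to a small change in Ccl3 and Ccl5. Ccl9 was at 126, 125 and 112 FPKM with TCR alone and at 40.2, 47.6 and 39.0 FPKM with PI3Kdi. Xcl1, which attracts cross-presenting dendritic cells, was at 6959.8, 6626 and 6403 against 2355, 2637 and 2520.5 FPKM. Their log2 changes were -1.52 (SE 0.09, limma adjusted p = 5.16e-08) and -1.41 (SE 0.27, adjusted p = 0.00167), and 18.7% of the exon sequence of Xcl1 overlaps Gm20743 on the other strand, where whether counting used strand is not stated. Ccl1, a ligand of CCR8, was at 6220.3, 5016 and 5529 against 2486, 2832 and 2778 FPKM. The inflammatory chemokine genes Ccl4 and Ccl3 were at 17861 ± 1669 and 19074 ± 1467 FPKM with TCR alone and at 9011 ± 528 and 13385 ± 745 FPKM with PI3Kdi, with log2 changes of -0.98 and -0.51 (adjusted p = 6.19e-06 and 0.0063) (for Ccl3 -0.33 on the TPM scale, adjusted p = 0.0161). Ccl5, a chemokine of effector T cells, went from 568, 449.8 and 481 to 379.6, 311 and 336 FPKM (log2 change -0.54, SE 0.11, adjusted p = 0.00274) and was named after its values were seen.

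**Figure D2:**
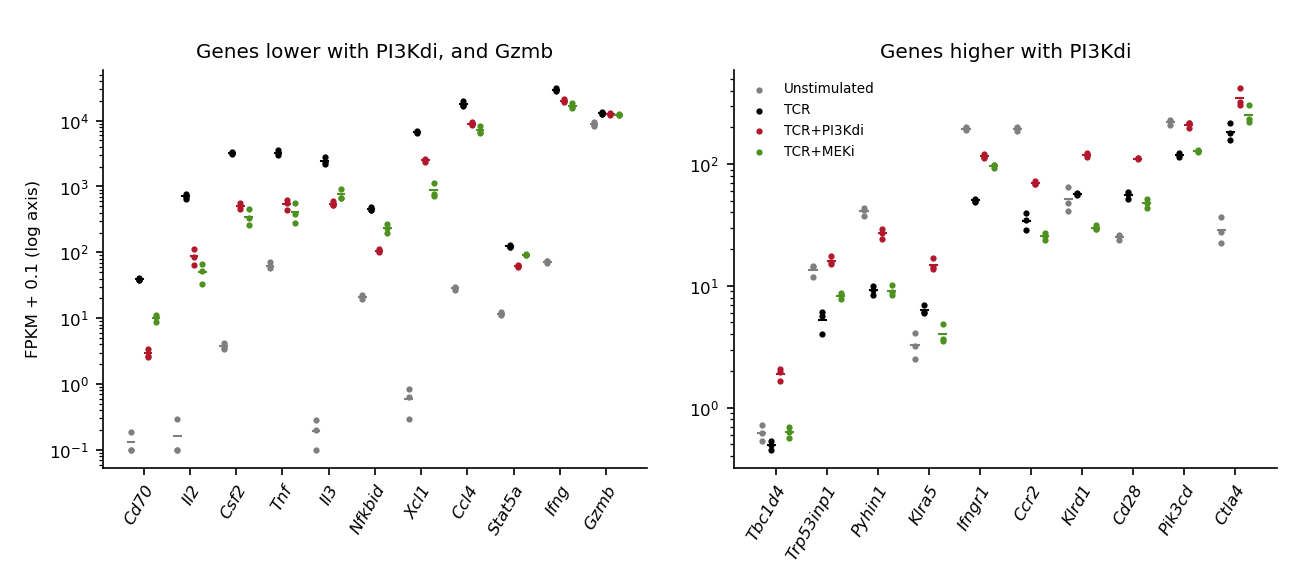
Points are single samples (FPKM + 0.1, log axis) of the 4 groups and short lines their means, n = 3 per group, for 11 genes on the left and 10 genes on the right. From Cd70 to Ifng the red PI3Kdi samples lie below the black TCR samples, Gzmb overlaps, and on the right the PI3Kdi samples lie above the TCR samples.

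The cytolytic machinery behaved differently from the ligands. Gzmb, encoding granzyme B, was at 13582, 12789 and 12645 FPKM with TCR alone and at 12849.6, 12674 and 12099.6 FPKM with PI3Kdi. The groups overlapped (log2 change -0.05, SE 0.09, limma adjusted p = 0.723), although the change was 0.32 (adjusted p = 0.0343) once quantile normalised, where its rank went from 4 to 3 as Ccl4 fell below it. Prf1, encoding the pore-forming protein perforin, was at 1486, 1429 and 1499 against 1219.9, 1259 and 1268 FPKM (log2 change -0.24, adjusted p = 0.0116, and -0.05 on the TPM scale, adjusted p = 0.489). Of 20 granzyme and granule genes 4 were lower, 0 higher and 0 called, with a median of -0.07, which was 0.11 with 5 higher and 1 lower on the TPM scale and 0.03 with 4 higher and 1 lower once quantile normalised, and the member that stayed lower under both was Ctsw, encoding cathepsin W, at 129, 113 and 129 against 96.98, 89.4 and 97.1 FPKM.

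Early response factors, which the TCR induces rapidly, were mostly lower by less than 2-fold. Of 25 EGR, NR4A and AP-1 genes 16 were lower, 1 was higher and 0 were called (median -0.41, and -0.23 on the TPM scale and -0.38 once quantile normalised). Batf, an AP-1 factor of effector T cells, was at 91.4, 80.5 and 92.7 FPKM with TCR alone and at 53.4, 43.0 and 48.0 FPKM with PI3Kdi. Egr2 was at 163, 175 and 178 against 86.9, 102 and 103 FPKM, and the orphan receptor gene Nr4a1, a common reporter of TCR signalling that was named after its values were seen, at 173, 139 and 194 against 96.5, 81.0 and 112 FPKM. None of these 3 genes overlapped between the groups, and the log2 changes were -0.87, -0.82 and -0.81 (limma adjusted p = 3.94e-06, 0.000127 and 0.00016). Egr1, also named afterwards, changed less (87.5 ± 10.5 to 60.8 ± 5.32 FPKM, log2 change -0.52, adjusted p = 0.00559).

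Many NF-κB genes were lower as well, with 1 of them called. Of 27 NF-κB factors and regulators 15 were lower and 2 higher (1 called lower, median -0.31, and -0.13 on the TPM scale and -0.17 once quantile normalised). Nfkbid encodes IκBNS, a nuclear regulator of NF-κB that is needed for full cytokine production in T cells, and it was at 446, 441 and 481 FPKM with TCR alone and at 102, 105 and 112 FPKM with PI3Kdi. The fall to a level between the unstimulated (21.1 ± 1.3 FPKM) and the TCR samples was seen in every replicate, with a log2 change of -2.10 (SE 0.09, limma adjusted p = 2.18e-09). Its inhibitor relatives Nfkbie (29.2 ± 3.83 to 15.9 ± 1.69 FPKM) and Nfkbia (98.8, 86.5 and 94.2 to 55.1, 55.2 and 55.3 FPKM) and the subunit gene Rel (92.7 ± 14.4 to 58.5 ± 9.41 FPKM) were lower by 0.88, 0.75 and 0.66 on the log2 scale, the last 2 named after their values were seen. Malt1, the protease of the complex that links the TCR to NF-κB, went the other way, from 48.9, 53.3 and 53.3 to 68.3, 70.5 and 73.2 FPKM (log2 change 0.45, SE 0.05, adjusted p = 3.68e-05). One listed start of Nfkbid is shown because its window holds the CRE letters TGACGTCA, bound by CREB and ATF factors, which 3.27% of the 8857 promoters hold, as do 5 of 109 called lower (4.59%) and 0 of 34 called higher, and it lies within the gene at chr7:30422156-30422405 on the plus strand (GRCm38.p6, RefSeq), with the motif in capitals.
Nfkbid: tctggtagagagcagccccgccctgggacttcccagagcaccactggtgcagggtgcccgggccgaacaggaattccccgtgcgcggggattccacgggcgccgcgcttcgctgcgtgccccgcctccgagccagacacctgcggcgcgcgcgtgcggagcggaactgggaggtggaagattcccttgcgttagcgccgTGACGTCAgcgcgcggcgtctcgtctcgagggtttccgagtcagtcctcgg

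Signal transducers for cytokines and survival genes had members on both sides. Stat5a, which carries the IL-2 signal, was at 128, 121 and 122 FPKM with TCR alone and at 61.9, 59.6 and 65.2 FPKM with PI3Kdi (log2 change -0.99, SE 0.05, limma adjusted p = 3.4e-08), just short of 2-fold and with no overlap. Socs1, a feedback inhibitor of cytokine signalling, was lower (24.3 ± 3.13 to 15.8 ± 3.17 FPKM), whereas Stat4 was slightly higher (36.0 ± 1.39 to 45.9 ± 2.68 FPKM, log2 change 0.35), where 26.7% of its exon sequence overlaps Gm28177. Of 23 JAK-STAT and SOCS genes 8 were lower and 2 higher, with a median of -0.11 that was 0.07 on the TPM scale. In the BCL2 family the survival gene Bcl2l1, encoding BCL-xL, fell from 176, 164 and 175 to 95.0, 88.6 and 97.3 FPKM (log2 change -0.88, SE 0.06, adjusted p = 1.24e-07). The survival gene Bcl2, left out of the counts of named genes below, rose from 17.9 ± 2.54 to 22.8 ± 2.09 FPKM (log2 change 0.35, SE 0.09, limma adjusted p = 0.0119). Bcl2l11, encoding the death-promoting BIM and named after its values were seen, was at 53.7 ± 2.6 against 58.2 ± 2.35 FPKM (log2 change 0.12, adjusted p = 0.133, and 0.30 with adjusted p = 0.00581 on the TPM scale). Of 15 BCL2 family genes 5 were lower and 2 higher, with a median of -0.01 (0.17 on the TPM scale).

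Factors that degrade cytokine mRNA moved apart. Zfp36, encoding tristetraprolin, which binds AU-rich elements, was at 31.1, 32.1 and 30.0 FPKM with TCR alone and at 55.9, 45.6 and 51.4 FPKM with PI3Kdi. Its relative Zfp36l2 was at 20.4, 21.9 and 25.9 against 33.5, 31.0 and 36.9 FPKM. Zc3h12a, encoding the RNase Regnase-1, was instead called lower, at 27.1, 28.2 and 29.1 against 13.2, 12.8 and 14.7 FPKM. All 3 genes were fully separated between the groups, with log2 changes of 0.71, 0.57 and -1.05 (limma adjusted p = 6.67e-06, 0.000346 and 1.02e-06). Of 15 genes measured in this list of cytokine mRNA regulators, not all of them decay factors, 7 were higher and 1 was lower. These shares were 46.7% and 6.67%, beside 12.7% and 12.8% of all genes, and the list median was 0.06.

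The genes raised by PI3Kdi were fewer above 2-fold and changed less: 50 of the 55 were under 3-fold and 0 over 4-fold, against 97 of 152 under 3-fold and 29 over 4-fold among those called lower. Their median level was 1.48 FPKM with TCR alone and 3.35 FPKM with PI3Kdi, beside 2.92 FPKM in unstimulated cultures, and 13 of the 55 stayed under 1 FPKM in both compared groups. For the 152 called lower the medians were 4.00, 1.05 and 0.157 FPKM, and 33 stayed under 1 FPKM. The unstimulated level was under 0.1 FPKM for 66 of the 152 and for 0 of the 55. The groups did not overlap for 55 of the 55 and 151 of the 152, as was the case for 19.0% of all genes upwards and 18.6% downwards. These genes were called on the same values, which makes such a separation likely, so it adds no further evidence for the calls.

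Genes that FOXO factors or PI3K inhibition are known to raise were higher wherever they passed the test. Of 33 FOXO targets and PI3K antagonists 16 were higher, 0 lower and 17 did not pass (5 called higher, median 0.36). The counts were 23 and 0 with a median of 0.54 on the TPM scale and 15 and 0 with a median of 0.36 once quantile normalised. The largest change was in Trp53inp1, a FOXO and p53 target that promotes autophagy and cell cycle arrest (chr4:11156441-11174379, GRCm38), at 3.93, 5.94 and 5.52 FPKM with TCR alone and at 15.04, 17.4 and 15.6 FPKM with PI3Kdi. Unstimulated cultures were at 13.4 ± 1.55 FPKM, with every TCR sample below and every PI3Kdi sample above them, and the log2 change was 1.64 (SE 0.13, limma adjusted p = 1.09e-06). Pik3ip1, a membrane inhibitor of PI3K, was at 0.50, 0.45 and 0.45 against 1.16, 1.22 and 1.21 FPKM, a low level with a narrow spread (log2 change 1.195, SE 0.15, adjusted p = 6.83e-05).

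Other members of this list belong to insulin signalling, mitochondria and the cell cycle, and were named after their values were seen. Irs2, an adaptor of the insulin receptor, was at 2.32, 2.08 and 2.03 FPKM with TCR alone and at 4.76, 3.98 and 5.45 FPKM with PI3Kdi. Pink1, a kinase of mitochondrial quality control, was at 5.37, 3.49 and 4.48 against 10.99, 7.77 and 10.1 FPKM. Both were called higher, each by 1.10 on the log2 scale (limma adjusted p = 0.00113 and 0.000357). Cdkn1b, encoding the CDK inhibitor p27, rose from 4.10 ± 0.37 to 7.23 ± 0.327 FPKM, Bach2, a repressor of effector genes, from 3.09 ± 0.3 to 5.88 ± 0.327 FPKM, and Txnip, an inhibitor of glucose uptake, from 69.9 ± 3.46 to 108 ± 2.3 FPKM, all under 2-fold. Foxo1 itself was at 15.1 ± 0.69 against 16.6 ± 0.732 FPKM and did not pass (log2 change 0.13, adjusted p = 0.202), except on the TPM scale (0.31, adjusted p = 0.00731).

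Lymph node homing and memory genes within the list varied. Ccr7, the receptor that guides T cells into lymph nodes, was at 38.4, 30.0 and 29.2 FPKM with TCR alone and at 68.8, 49.2 and 56.4 FPKM with PI3Kdi. The groups were separate (log2 change 0.83, limma adjusted p = 0.00106). Il7r, the receptor for the survival cytokine IL-7, rose from 10.2 ± 0.245 to 15.8 ± 0.186 FPKM, and Klf2, a FOXO1 target that drives homing genes, was at 1.41, 0.94 and 0.95 against 2.42, 1.28 and 1.68 FPKM, where the samples overlapped and the adjusted p was 0.0344 (0.0666 once quantile normalised), which was lost without TCR replicate 2 or 3 or PI3Kdi replicate 1 or 3 (log2 changes 0.54, 0.55, 0.41 and 0.66). S1pr1, needed for exit from lymph nodes, was at 0.03, 0.10 and 0.03 against 0.03, 0.07 and 0.17 FPKM, so a change in it was not detectable at this depth, and Tcf7, a marker of memory-like cells, was at 3.38 ± 0.293 against 3.05 ± 0.365 FPKM (log2 change -0.14, SE 0.24, adjusted p = 0.704).

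The drug target was among the small changes with the lowest p-values. Pik3cd, which encodes p110δ (chr4:149649168-149702566, GRCm38), was at 118, 115 and 124 FPKM with TCR alone and at 215, 196 and 219 FPKM with PI3Kdi, close to the unstimulated 221 ± 10.8 FPKM (log2 change 0.82, SE 0.06, limma adjusted p = 3.07e-07). Pik3r1, its regulatory partner p85α, rose from 10.0 ± 0.641 to 14.9 ± 0.785 FPKM, and the other catalytic subunits Pik3cg (4.88 ± 0.0954 to 6.99 ± 0.537 FPKM) and Pik3cb (1.80 ± 0.0819 to 2.52 ± 0.0404 FPKM), named after their values were seen, rose by 0.51 and 0.46 on the log2 scale. The call of Pik3cb was lost without TCR replicate 1 or PI3Kdi replicate 2 (0.44 and 0.45). Pik3r6, a regulatory subunit of p110γ, was one of the 2 that fell (4.02, 2.86 and 3.21 to 1.92, 1.5 and 1.49 FPKM, log2 change -0.99). The remaining 23 of the 30 PI3K pathway genes did not pass, and the list median was 0.13. The share that passed, 23.3%, was near the 25.6% of all genes.

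Receptors on the T cell surface changed in both directions. Of 29 costimulatory and inhibitory receptors 8 were higher and 8 lower (1 called higher and 2 called lower, median -0.06, which was 0.13 with 11 higher and 6 lower on the TPM scale and 0.07 once quantile normalised). Cd28, the costimulatory receptor that itself recruits PI3K, was at 51.9, 58.9 and 56.8 FPKM with TCR alone and at 109, 112 and 111 FPKM with PI3Kdi, and its relatives Ctla4 and Icos at 215, 179 and 159 against 418, 322 and 306 FPKM and at 50.4, 50.4 and 45.7 against 92.6, 100.5 and 86.8 FPKM. The samples of all 3 genes were separate, and each stayed just under 2-fold as deposited and passed it on the TPM scale (log2 changes 0.99, 0.92 and 0.93 as deposited, and 1.17, 1.10 and 1.11 on the TPM scale).

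Some killer cell lectin-like receptors, better known from NK cells and encoded on chromosome 6, were among those raised. The lectin-like genes described next are members that rose, and the family was not counted as a class. Klrb1c did not pass (log2 change 0.32, limma adjusted p = 0.144). Klrd1, encoding CD94, was at 56.1, 56.0 and 58.0 FPKM with TCR alone and at 124, 118 and 114 FPKM with PI3Kdi (log2 change 1.06, SE 0.11, limma adjusted p = 1.53e-05). Klra5, a Ly49 family gene, was at 5.88, 6.04 and 6.91 against 14.1, 13.6 and 16.7 FPKM, and the samples of both genes were separate. The CD94 partner Klrc1, encoding NKG2A, and Klrk1, encoding NKG2D, rose from 16.4 ± 2.47 to 29.5 ± 7.28 and from 38.8 ± 3.25 to 56.0 ± 4.08 FPKM, as did the inhibitory receptor Tigit, from 134, 115 and 113 to 213, 199.8 and 194 FPKM, and these 3 were named after their values were seen. The call of Klrc1 was lost without TCR replicate 1 or 2 or PI3Kdi replicate 2 or 3 (log2 changes 0.71, 0.83, 0.73 and 0.69).

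The receptors that fell included inhibitory ones. Cd160, a receptor for HVEM, was at 191, 184 and 188 FPKM with TCR alone and at 103, 95.1 and 99.9 FPKM with PI3Kdi. Crtam, an adhesion receptor of activated CD8 T cells, was at 853, 831 and 821 against 522, 587 and 578 FPKM, both named after their values were seen. Cd5 and Cd200, which restrain immune cells, were called lower (6.91 ± 0.746 to 3.43 ± 0.74 and 1.73 ± 0.162 to 0.713 ± 0.196 FPKM). Exhaustion-associated Pdcd1, Lag3 and Havcr2 were at 210.2 ± 14.6, 254 ± 38.4 and 292 ± 12.8 FPKM with TCR alone and at 191 ± 11.4, 242 ± 31.2 and 306 ± 17.4 FPKM with PI3Kdi, and none of the 3 passed (limma adjusted p = 0.491, 0.675 and 0.509), although Havcr2 did on the TPM scale (0.25, adjusted p = 0.0105) and once quantile normalised (0.22, adjusted p = 0.0326). Slamf6 was at 0.997 ± 0.133 against 0.823 ± 0.327 FPKM and overlapped (log2 change -0.30, adjusted p = 0.421).

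Chemokine receptors had more members higher than lower, and cytokine receptors changed in both directions. Of 11 chemokine and related receptors 5 were higher and 2 lower (median 0.23, and 0.41 on the TPM scale and 0.13 once quantile normalised), led by Ccr2, a receptor for inflamed tissue, at 28.6, 34.4 and 39.7 FPKM with TCR alone and at 68.3, 68.4 and 73.0 FPKM with PI3Kdi. S1pr4, a sphingosine phosphate receptor, was at 18.9, 15.2 and 17.3 against 35.5, 32.4 and 34.9 FPKM. Cxcr6 (61.2, 58.6 and 49.5 to 129, 106 and 86.0 FPKM), named after its values were seen, was higher and separate from TCR in every replicate. Of 32 cytokine receptors 8 were higher and 6 lower (25.0% and 18.8%, beside 12.7% and 12.8% of all genes), with 1 called higher and 2 called lower. Their median was 0.07 (0.24 on the TPM scale and 0.13 once quantile normalised), and -0.03 to 0.12 without single samples. Ifngr1, the ligand-binding chain of the IFNγ receptor, was at 49.95, 49.0 and 51.5 against 114, 119.5 and 113 FPKM, which lies between the TCR and the unstimulated samples (195 ± 6.45 FPKM) and gave the smallest p among the genes named as higher (log2 change 1.202, SE 0.05, limma adjusted p = 1.51e-09). Il1r2, a decoy receptor for IL-1, was called lower at 66.8, 57.4 and 53.5 against 31.0, 28.6 and 26.1 FPKM.

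TNF receptors followed no single direction. Of 19 measured, 4 were higher and 5 lower (median -0.15, which was 0.03 on the TPM scale). Tnfrsf26, a decoy-like member, was at 3.10, 3.62 and 3.12 FPKM with TCR alone and at 7.69, 7.66 and 7.66 FPKM with PI3Kdi. Its neighbour Tnfrsf23 was at 1.65, 2.09 and 1.93 against 3.47, 3.94 and 3.64 FPKM. Tnfrsf4, encoding the costimulatory receptor OX40, was lower, at 181, 123 and 139.6 against 86.0, 65.5 and 79.0 FPKM (log2 change -0.93, SE 0.20, limma adjusted p = 0.003). Tnfrsf9, encoding 4-1BB, was at 709.8 ± 23.3 against 723 ± 22.8 FPKM (log2 change 0.03, adjusted p = 0.745, and 0.21 with adjusted p = 0.00399 on the TPM scale and 0.22 with adjusted p = 0.0053 once quantile normalised), while its ligand gene Tnfsf9 fell as given above.

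Interferon-inducible genes, which cells turn on to resist viruses and intracellular pathogens, held 4 of the 55 genes called higher. Of 60 measured, 22 were higher and 4 lower (4 called higher, median 0.24, and 33 and 2 with a median of 0.42 on the TPM scale and 18 and 4 with 0.19 once quantile normalised). Iigp1, an immunity-related GTPase that acts on pathogen vacuoles, was at 3.61, 4.23 and 6.37 FPKM with TCR alone and at 12.97, 12.4 and 17.4 FPKM with PI3Kdi. Gbp2, a guanylate-binding protein gene, was at 47.5, 35.0 and 43.5 against 104, 74.4 and 92.4 FPKM. Both groups of samples were separate, with log2 changes of 1.59 and 1.10 (limma adjusted p = 2.75e-05 and 0.000174). Related GTPase genes were higher by less than 2-fold, with Gbp7 from 10.3 ± 1.5 to 18.7 ± 2.07 FPKM, Ifi47 from 28.6 ± 1.72 to 50.4 ± 1.3 FPKM, Tgtp1 from 7.97 ± 2.32 to 14.4 ± 1.57 FPKM and Tgtp2 from 5.02 ± 0.936 to 9.87 ± 0.475 FPKM, of which Gbp2, Gbp7, Tgtp1 and Tgtp2 were named after their values were seen, and Tgtp1 shares 73.1% of its 100-base stretches with Tgtp2, so their reads may be split between both.

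Pyhin1, a nuclear member of the interferon-inducible PYHIN family, and BC094916 (Ifi214 in RefSeq), annotated in the same stretch of chromosome 1, rose as well. Pyhin1 was at 8.26, 9.22 and 9.89 FPKM with TCR alone and at 24.1, 26.96 and 29.4 FPKM with PI3Kdi. BC094916 was at 6.18, 9.19 and 9.06 against 18.8, 20.2 and 21.2 FPKM. The PI3Kdi samples were separate for both, with log2 changes of 1.54 (SE 0.09, limma adjusted p = 8.51e-08) and 1.31 (SE 0.17, adjusted p = 8.62e-05). Of the 100-base stretches of Pyhin1, 16.9% also occur in BC094916, and 7.29% of those of BC094916 occur in Pyhin1, so their reads may be split between both genes. The interferon-inducible RNA sensor Ifih1 and the nuclease Isg20 were among the 4 that fell (8.53 ± 0.757 to 5.24 ± 0.4 and 58.0 ± 6.79 to 36.8 ± 4.52 FPKM). Of 21 genes of MHC class I presentation, which interferons also induce, 0 were higher and 8 lower with a median of -0.15, which was 0.03 with 4 higher and 2 lower on the TPM scale. The promoter of Pyhin1 is shown as a raised gene for contrast with Il6, since it also holds the AP-1 letters (capitals, reverse complement), whereas the FOXO core GTAAACA, present in 2.73% of the 8857 windows, was in 0 of the 34 called higher and 3 of the 109 called lower (2.75%), and the interferon element GAAACTGAA, present in 0.519%, was in 0 of 34 and 1 of 109 (0.917%). Its window is chr1:173630609-173630858 on the plus strand (GRCm38.p6, RefSeq).
Pyhin1: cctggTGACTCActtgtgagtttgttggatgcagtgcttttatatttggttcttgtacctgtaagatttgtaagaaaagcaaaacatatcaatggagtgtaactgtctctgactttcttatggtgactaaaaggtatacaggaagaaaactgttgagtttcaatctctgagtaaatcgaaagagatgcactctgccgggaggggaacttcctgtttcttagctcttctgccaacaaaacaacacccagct

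GIMAP genes, small GTPases of lymphocyte survival that sit in a cluster on chromosome 6, had the highest share of raised members of the 44 lists. Of 8 measured, 7 were higher and 0 lower (median 0.30, and 0.48 on the TPM scale and 0.37 once quantile normalised), with 0 called. Gimap7 was at 22.3, 21.2 and 19.8 FPKM with TCR alone and at 43.7, 37.6 and 35.9 FPKM with PI3Kdi. Gimap6 was at 109, 125 and 105 against 178, 175 and 163 FPKM (log2 changes 0.88 and 0.61, limma adjusted p = 4.98e-06 and 1.09e-05). Gimap5, named after its values were seen, was the member that did not pass, at 58.2 ± 1.47 against 60.1 ± 2.42 FPKM (log2 change 0.05, and 0.23 with adjusted p = 0.00931 on the TPM scale).

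The other genes of the 12 largest rises belong to no single list. Tbc1d4, an AKT substrate that controls glucose transporter traffic, was at 0.39, 0.35 and 0.43 FPKM with TCR alone and at 1.97, 1.87 and 1.56 FPKM with PI3Kdi, above the 0.523 ± 0.095 FPKM of unstimulated cultures. Nt5e, encoding the adenosine-producing enzyme CD73, was at 0.26, 0.37 and 0.51 against 1.23, 0.96 and 1.63 FPKM. Atp6v0d2, a proton pump subunit of lysosomes, rose from 1.48 ± 0.217 to 4.46 ± 0.829 FPKM, and Acat2, of acetoacetyl-CoA metabolism, from 1.57 ± 0.233 to 4.44 ± 0.768 FPKM, where 28.9% of the stretches of Acat2 also occur in Acat3. Fam65b, an inhibitor of RHOA, was at 0.853 ± 0.112 against 2.33 ± 0.33 FPKM. A930038C07Rik was at 3.18 ± 0.0569 against 8.71 ± 0.425 FPKM. The 12 largest falls include, beside the ligands above, Lad1, a basement membrane protein gene (4.93, 4.38 and 3.85 to 0.77, 0.47 and 0.51 FPKM), and 4933425H06Rik (1.77 ± 0.465 to 0.237 ± 0.136 FPKM).

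Proximal TCR signalling genes changed in both directions with 0 called, 13 of 46 higher and 11 lower (median 0.02). Rasa3, a RAS and RAP GTPase-activating protein that binds PI3K lipids, was at 13.3, 12.4 and 11.8 FPKM with TCR alone and at 25.2, 24.6 and 23.1 FPKM with PI3Kdi. Lax1, an adaptor that limits TCR signalling, was at 38.3, 36.0 and 39.6 against 66.1, 63.5 and 63.6 FPKM. The samples were separate (log2 changes 0.95 and 0.76, limma adjusted p = 4.49e-07 and 4.92e-07). Ptpn6, encoding the phosphatase SHP-1, and Tec, a kinase recruited by PIP3, were lower (30.7 ± 2.43 to 20.0 ± 1.35 and 24.9 ± 1.73 to 18.2 ± 1.17 FPKM). Among ERK feedback genes, 2 of 21 were higher and 4 lower (median -0.04, which was 0.14 on the TPM scale). The share that passed, 28.6%, was near the 25.6% of all genes. The phosphatase genes Dusp5 and Dusp4 differed in direction, Dusp5 at 181, 154 and 183 against 235, 222 and 239.6 FPKM and Dusp4 at 54.6, 63.5 and 55.8 against 31.6, 34.4 and 31.3 FPKM.

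Transcription factors of CD8 T cell fate passed the test about as often as all genes did. Of 39 measured, 6 were higher and 5 lower (15.4% and 12.8%, beside 12.7% and 12.8% of all genes). Their median was -0.03, which was 0.15 on the TPM scale and 0.01 once quantile normalised. Tbx21, encoding T-bet, which drives effector differentiation, was at 58.5, 45.5 and 54.9 FPKM with TCR alone and at 30.9, 23.8 and 31.8 FPKM with PI3Kdi (log2 change -0.88, SE 0.11, limma adjusted p = 5.9e-05). Satb1, a chromatin organiser, and Hif1a, the hypoxia and glycolysis factor, were higher, at 33.8, 32.8 and 30.8 against 64.4, 61.8 and 59.9 FPKM and at 114, 128 and 124 against 192, 214 and 199 FPKM. None of these 3 genes overlapped between the groups.

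Growth and biosynthesis genes showed small falls in many members and 0 beyond 2-fold in the lists of ribosome production and amino acid response. Of 85 ribosome biogenesis genes 66 were lower, 0 higher and 0 called, with a median of -0.27 and 82 of 85 below 0, and on the TPM scale 20 were lower and 3 higher (median -0.09) and once quantile normalised 42 were lower and 0 higher (median -0.18). Polr1c, a subunit of RNA polymerase I, was at 122, 103 and 103 FPKM with TCR alone and at 69.0, 74.5 and 75.7 FPKM with PI3Kdi, and the processome component Rrp9 at 141, 128 and 135 against 101, 85.2 and 90.4 FPKM. Ppan, a ribosome assembly factor outside the list, was at 192, 164 and 172 against 97.95, 82.1 and 91.7 FPKM, and all 3 genes were separate between the groups, with log2 changes of -0.58, -0.55 and -0.96 (limma adjusted p = 5.71e-05, 2.81e-05 and 4.39e-07).

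Genes of the amino acid response, driven by ATF4, and the cytosolic tRNA synthetases fell to a like extent. Of 35 genes 27 were lower, 0 higher and 0 called (median -0.32, and 15 lower and 3 higher with a median of -0.14 on the TPM scale and 20 lower and 0 higher with -0.18 once quantile normalised). Chac1, a glutathione-degrading enzyme induced by amino acid stress, was at 24.02, 18.4 and 19.1 FPKM with TCR alone and at 9.81, 9.77 and 13.2 FPKM with PI3Kdi. Nupr1, a stress-induced chromatin protein, was at 44.9, 37.5 and 34.9 against 22.04, 20.3 and 20.9 FPKM. The amino acid transporters Slc6a9 and Slc7a3 fell from 12.7 ± 0.93 to 7.12 ± 1.33 and from 16.1 ± 2.67 to 10.4 ± 0.935 FPKM, where 30.2% of the exon sequence of Slc6a9 overlaps Ccdc24. In all, 7 of 16 amino acid transporters were lower and 1 higher (median -0.15, which was 0.03 on the TPM scale).

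Myc and enzymes of growth metabolism were lower by less than 1.5-fold. Myc was at 298, 267 and 306 FPKM with TCR alone and at 229, 208 and 232 FPKM with PI3Kdi (log2 change -0.38, SE 0.06, limma adjusted p = 0.000461, and -0.20 on the TPM scale, adjusted p = 0.0163), while Mxi1, which opposes MYC, was higher at 5.29, 5.36 and 4.57 against 10.1, 9.92 and 8.99 FPKM. Srm and Odc1, of polyamine synthesis, were at 328, 279 and 284 against 217, 193 and 199 FPKM and at 449, 428 and 421 against 355, 336 and 327 FPKM. Shmt2, which supplies carbon units from serine, and Ctps, of CTP synthesis, were at 231 ± 20.6 against 167 ± 9.29 FPKM and at 74.1 ± 3.52 against 57.6 ± 1.51 FPKM. Of 9 polyamine genes 5 were lower and of 33 nucleotide and folate genes 10 were lower and 3 higher, with medians of -0.24 and -0.13 (-0.06 and 0.05 on the TPM scale). Eif4ebp1, encoding the translation repressor 4E-BP1, was at 190.1, 158 and 167 against 129, 115 and 113 FPKM. In all, 17 of 54 translation initiation factors were lower and 4 higher (median -0.11, and 12 higher and 4 lower with a median of 0.07 on the TPM scale).

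The abundant housekeeping classes lay below the median of all genes both as deposited and on the TPM scale (0.02 and 0.19), while the split into higher and lower members rested on the scale. Mitochondrial ribosomal proteins (15 of 76 lower, median -0.14), respiratory chain genes (7 of 81 lower, median -0.11), proteasome genes (11 of 41 lower, median -0.14) and ER chaperones (13 of 39 lower, median -0.09) had 0 members higher as deposited, and on the TPM scale 9, 12, 4 and 11 members were higher and 0, 0, 1 and 1 lower, with medians of 0.04, 0.07, 0.05 and 0.09. Cytosolic ribosomal proteins, with 5 of 82 lower, 0 higher and a median of -0.13 as deposited, had 0 lower and 1 higher with a median of 0.05 on the TPM scale. As deposited 12.8% of all genes were lower. The shares of respiratory chain genes (8.64%) and cytosolic ribosomal proteins (6.1%) were below that. Those of mitochondrial ribosomal proteins (19.7%), proteasome genes (26.8%) and ER chaperones (33.3%) were above it. Once quantile normalised, the medians were -0.08 for mitochondrial ribosomal proteins, 0.02 for respiratory chain genes, 0.00 for proteasome genes, 0.01 for ER chaperones and 0.05 for cytosolic ribosomal proteins. Herpud1, of ER-associated degradation, was lower under both scalings, at 126, 109 and 117 FPKM with TCR alone and at 85.8, 76.3 and 84.7 FPKM with PI3Kdi, whereas Atp5g1, of the ATP synthase, and Mrpl38 did not pass on the TPM scale (as deposited -0.32 and -0.35, on the TPM scale -0.14 and -0.17, limma adjusted p = 0.134 and 0.0821).

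Glycolysis and hypoxia genes split by member. Of 31 measured, 6 were higher and 5 lower (19.4% and 16.1%, beside 12.7% and 12.8% of all genes). Their median was -0.06, which was 0.12 on the TPM scale and 0.05 once quantile normalised. Hk2, the inducible hexokinase, was at 71.6, 72.9 and 78.7 FPKM with TCR alone and at 52.2, 50.4 and 53.5 FPKM with PI3Kdi, and P4ha2, a collagen prolyl hydroxylase, was called lower at 6.86, 4.56 and 5.13 against 2.60, 1.81 and 1.88 FPKM. The lactate exporter Slc16a3 and the kinase Pdk1, which keeps pyruvate from the mitochondria, were higher (16.4 ± 2.75 to 28.0 ± 2.72 and 5.10 ± 0.143 to 7.06 ± 0.606 FPKM).

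Cell cycle genes showed many small rises, the most of the 44 lists in number. Of 64 mitosis genes 48 were higher, 1 was lower and 0 were called (median 0.37, and 57 and 0 with a median of 0.55 on the TPM scale and 45 and 0 with 0.36 once quantile normalised). Cenpf, a kinetochore protein, was at 2.05, 2.68 and 2.61 FPKM with TCR alone and at 3.35, 4.77 and 4.30 FPKM with PI3Kdi. Kif14, a mitotic kinesin, was at 1.64, 2.02 and 1.86 against 2.58, 3.18 and 2.95 FPKM, both below the unstimulated 6.71 ± 0.423 and 4.83 ± 0.259 FPKM. The groups were separate, with log2 changes of 0.73 and 0.63 (limma adjusted p = 0.00123 and 0.00151). Cdc20, an activator of the anaphase complex, was the member that fell, at 53.7 ± 1.61 against 45.6 ± 0.592 FPKM (log2 change -0.24, adjusted p = 0.0212), which did not pass on the TPM scale (adjusted p = 0.566) or without TCR replicate 3 or PI3Kdi replicate 2 or 3 (-0.21, -0.24 and -0.23).

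DNA replication genes followed mitosis genes at a lower size. Of 57 measured, 23 were higher and 1 lower (median 0.19, and 46 and 0 with 0.37 on the TPM scale and 21 and 0 with 0.16 once quantile normalised). Clspn, a checkpoint protein at replication forks, was at 3.89, 4.73 and 4.28 FPKM with TCR alone and at 6.30, 6.67 and 6.97 FPKM with PI3Kdi. Pola2, a subunit of the priming polymerase, was at 8.49, 9.12 and 11.01 against 15.2, 13.2 and 12.7 FPKM. The G1 regulators went both ways: the pocket protein genes Rb1 (5.12 ± 0.703 to 7.56 ± 0.43 FPKM) and Rbl1 (4.68 ± 0.579 to 6.73 ± 0.933 FPKM) rose, and the cyclin genes Ccnd2 (271, 301 and 299 to 187, 218 and 222 FPKM) and Ccnd1 (0.89, 1.33 and 1.99 to 0.24, 0.13 and 0.29 FPKM) fell, by 0.48 and 2.20 on the log2 scale.

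Several classes had no more members past the test than all genes had, or about as many. Sterol and fatty acid synthesis genes had 5 of 39 higher and 5 lower (median 0.02), lysosome and autophagy genes 5 of 58 higher and 8 lower (median 0.04), integrins 2 of 18 higher and 3 lower (median 0.06), RGS proteins 2 of 12 higher and 1 lower (median -0.02), Notch pathway genes 0 of 10 higher and 2 lower (median -0.02), SMAD regulators 0 of 13 higher and 2 lower (median 0.00) and zinc finger genes 28 of 283 higher and 8 lower (median 0.10). On the TPM scale these medians were 0.14 to 0.27, and once quantile normalised that of SMAD regulators was -0.06. Individual members still moved, as did Cd63, a tetraspanin of secretory lysosomes, which was called lower at 19.2, 16.1 and 16.6 FPKM with TCR alone and at 9.87, 6.16 and 7.71 FPKM with PI3Kdi, and Psap, the saposin precursor, which rose from 32.3 ± 1.6 to 42.8 ± 1.78 FPKM. Rgs2, a brake on G protein signalling, rose from 19.2 ± 2.31 to 29.5 ± 3.76 FPKM, and the integrin subunit genes Itgb3 and Itga3 went from 3.16 ± 0.232 to 5.63 ± 0.252 and from 17.6 ± 1.9 to 10.9 ± 1.58 FPKM.

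**Figure D3:**
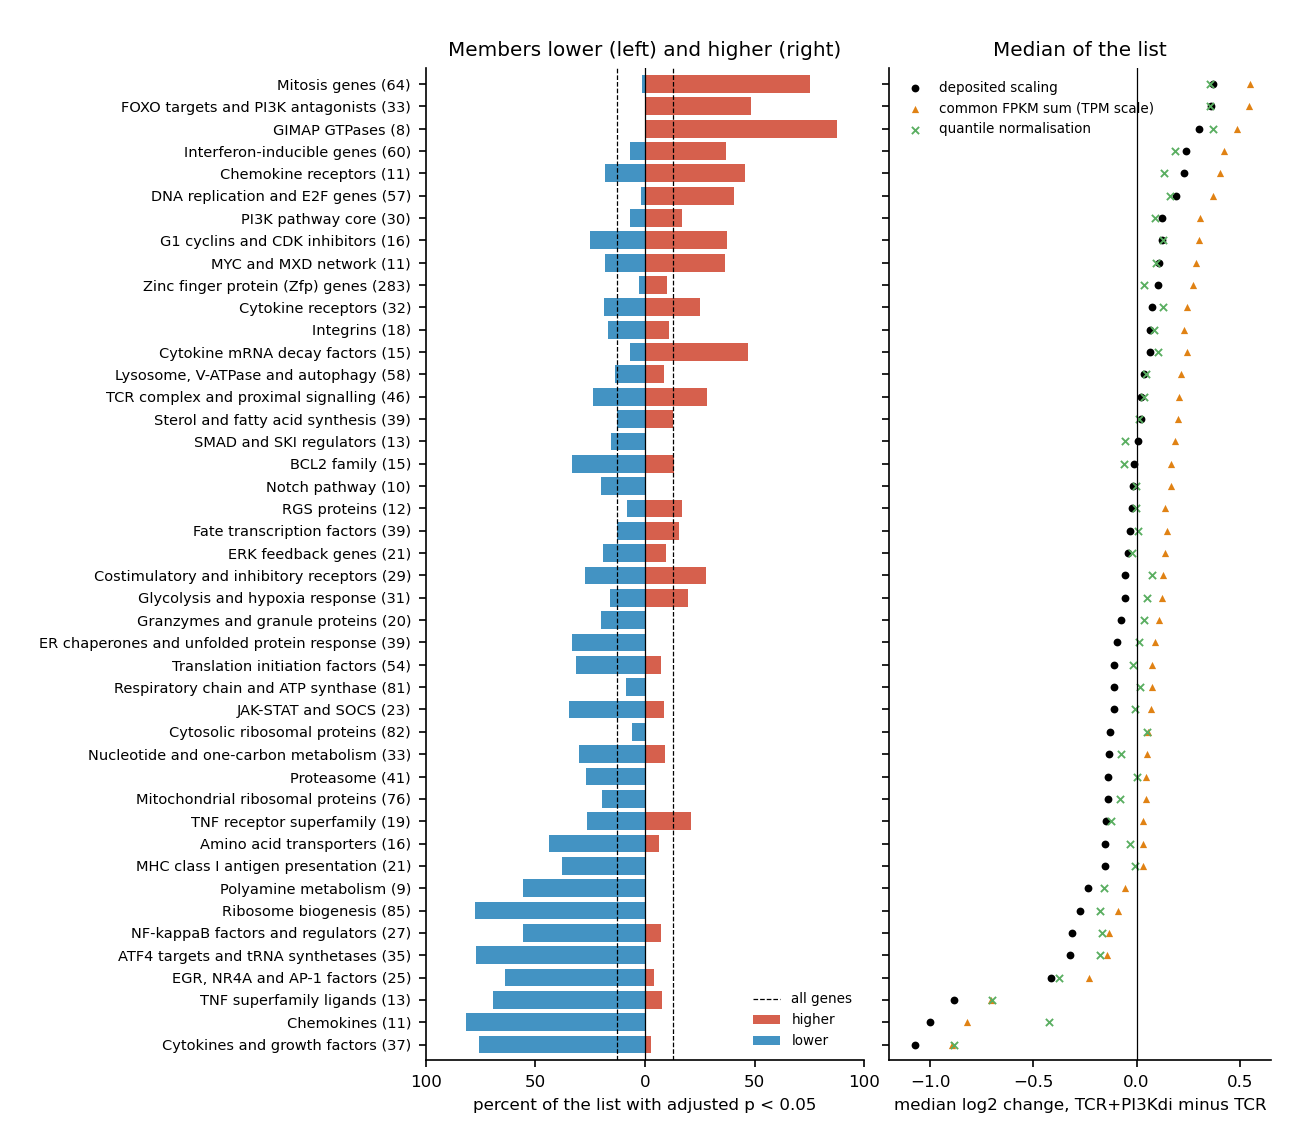
Each row is 1 of 44 gene lists with the number of members in the table. The left panel gives the percent of members lower and higher at an adjusted p under 0.05, with dashed lines at the 12.8% and 12.7% of all genes, and the right panel gives the median log2 change as deposited, on the TPM scale and once quantile normalised. The TPM scale shifts all lists upwards together and leaves 0 of 44 on the other side of the median of all genes, and quantile normalisation moves 5 of them across it.

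The size of the changes differed between directions. Of the 2818 genes at an adjusted p under 0.05, 571 (20.3%) changed by less than 1.2-fold, 1535 (54.5%) by 1.2 to 1.5-fold, 505 (17.9%) by 1.5 to 2-fold and 207 (7.35%) by more. Rises outnumbered falls between 1.2 and 1.5-fold (861 and 674) and between 1.5 and 2-fold (294 and 211), falls outnumbered rises below 1.2-fold (378 and 193) and above 2-fold (152 and 55), and the median change was 1.34-fold for genes that were higher and 1.28-fold for those that were lower. Add1, which encodes the cytoskeletal protein adducin, at 37.2, 35.6 and 38.3 FPKM with TCR alone and at 61.7, 59.9 and 64.2 FPKM with PI3Kdi, and Cd82, a tetraspanin at 373, 346 and 352 against 191, 198 and 204 FPKM, show how far the samples of such small changes were apart (limma adjusted p = 3.71e-07 and 4.49e-07).

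As deposited, the direction of the changes at an adjusted p under 0.05 followed the level of the gene from 1 FPKM upwards. The shares below include the genes called at more than 2-fold. Among 4160 genes with a mean of 1 to 10 FPKM 16.2% were higher and 6.42% lower, among 4864 genes at 10 to 100 FPKM 12.8% and 16.4%, and among 708 genes at 100 to 1000 FPKM 3.95% and 36.7%. Above 1000 FPKM 0 of 99 genes were higher and 16 lower, and under 1 FPKM 6.38% and 6.21% of 1191 genes passed. The medians of these bins ran from 0.10 at 1 to 10 FPKM to -0.14 at 100 to 1000 FPKM as deposited. On the TPM scale they were 0.28 and 0.05, and the bin at 100 to 1000 FPKM had 152 genes higher and 90 lower.

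**Figure D4:**
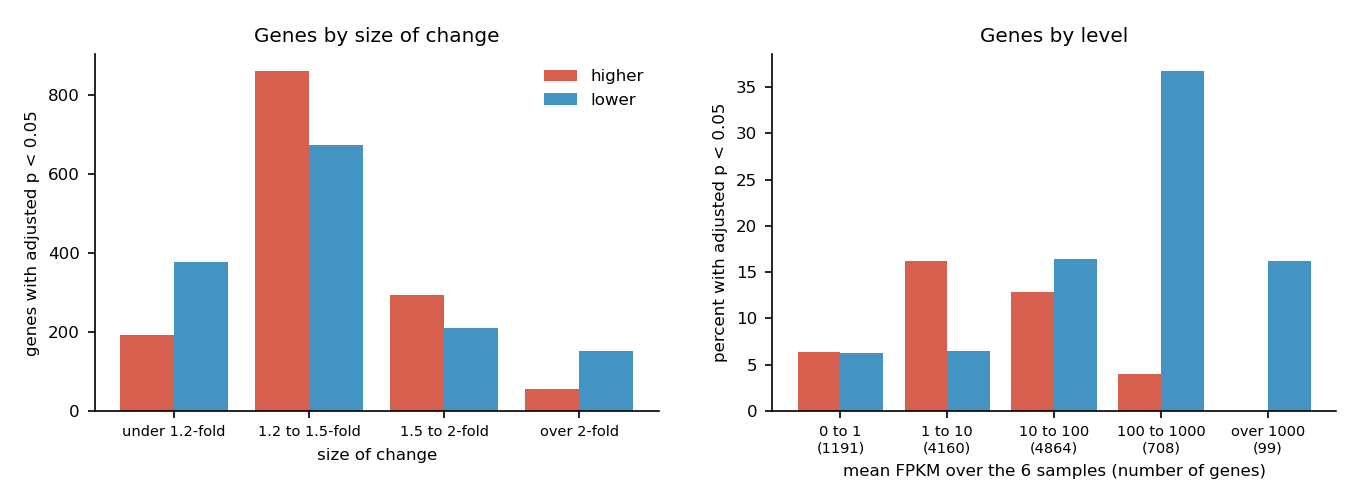
Left, the number of genes at an adjusted p under 0.05 by size of change, and right, the percent of genes of each mean FPKM range that were higher or lower, with the number of genes in brackets. Rises are most frequent between 1.2 and 1.5-fold and at 1 to 10 FPKM, and falls reach 36.7% at 100 to 1000 FPKM as deposited, where the TPM scale has more rises than falls.

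In total FPKM, PI3Kdi samples held less. The FPKM sum over the 11022 genes was 666922, 620715 and 630551 in the TCR samples and 585849, 554434 and 549897 with PI3Kdi, a drop of 11.9%, and the groups did not overlap (exact two-sided permutation test, p = 0.1, the smallest that 3 against 3 samples allow). The 10 genes with the largest drop made up 53.8% of it, namely Ifng (12.4%), Ccl4 (11.6%), Ccl3 (7.49%), Xcl1 (5.47%), Ccl1 (3.803%), Tnf (3.57%), Csf2 (3.55%), Il3 (2.52%), Il10 (2.52%) and Il2 (0.813%), and 100 genes made up 77.6%. By class, chemokines accounted for 28.7%, cytokines for 22.8%, TNF ligands for 4.57% and cytosolic ribosomal proteins for 14.9%. The size of the ribosomal drop, -11358 FPKM, varied with the sample left out. It was -5583 FPKM (8.97% of the total) without TCR replicate 1 and -16860.5 FPKM (19.3%) without PI3Kdi replicate 1. The ribosomal sum was lower with PI3Kdi in each same-numbered pair (137781 to 125878, 117677 to 109982 and 123234 to 108758 FPKM). Few ribosomal protein genes passed the test and the samples of the groups overlapped, as Rpl41 shows at 3613, 2875 and 3285 against 2901, 2859 and 2617 FPKM (log2 change -0.22, limma adjusted p = 0.0836, and -0.30 with a pass without TCR replicate 2, named after its values were seen).

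**Figure D5:**
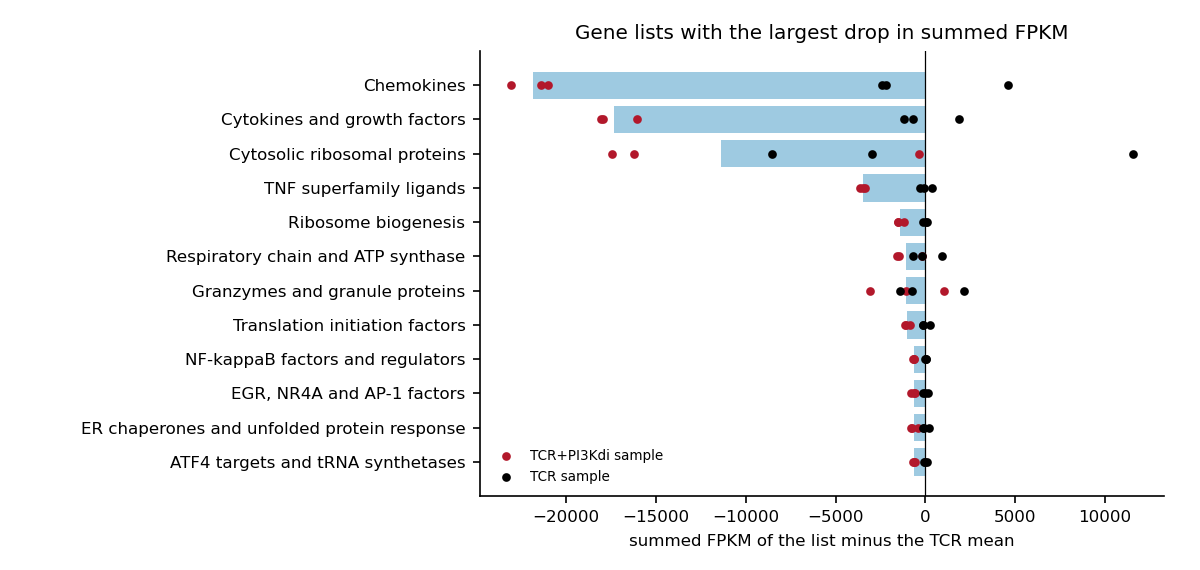
Bars give the drop in summed FPKM for the 12 gene lists with the largest drop (PI3Kdi mean minus TCR mean) and points the single samples relative to the TCR mean, n = 3 per group. Chemokines and cytokines separate the groups, and the samples overlap for cytosolic ribosomal proteins, respiratory chain genes and granzymes.

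The named genes were set beside the MEK inhibitor samples. Both inhibitors were measured against the same TCR samples, so the tests here are of TCR+MEKi minus TCR+PI3Kdi, for genes that were chosen on the PI3Kdi values, and of the 162 genes named here 110 differed between the inhibitors at an adjusted p under 0.05 (28.9% of all genes did). Several ligands did not pass that test: Il2 was at 87.2 ± 24.1 FPKM with PI3Kdi and at 50.7 ± 17.1 FPKM with MEKi (difference -0.81, SE 0.34, limma adjusted p = 0.0911), Tnf at 539 ± 96.4 and 409 ± 147 FPKM (-0.44, SE 0.19, adjusted p = 0.0996), Cd40lg at 47.5 ± 2.47 and 39.3 ± 3.13 FPKM (-0.27, SE 0.13, adjusted p = 0.137) and Ccl9 at 42.3 ± 4.67 and 37.4 ± 2.8 FPKM (-0.17, SE 0.09, adjusted p = 0.152), and a p that misses the threshold does not show that the inhibitors act alike.

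Others were lower with PI3Kdi than with MEKi. Cd70 was at 2.82 ± 0.438 FPKM with PI3Kdi and at 9.98 ± 1.12 FPKM with MEKi (difference 1.79, SE 0.20, limma adjusted p = 1.35e-05), Nfkbid at 106 ± 5.26 and 234 ± 35.6 FPKM (1.13, SE 0.09, adjusted p = 3.33e-07), Il23a at 16.3 ± 1.81 and 50.3 ± 4.56 FPKM (1.62, SE 0.09, adjusted p = 1.68e-08) and Il22 at 0.723 ± 0.153 and 11.7 ± 1.91 FPKM (3.85, SE 0.20, adjusted p = 1.3e-08). Stat5a, Batf and Nfkbie were also higher with MEKi, by 0.57, 0.79 and 0.97 on the log2 scale. Lad1, Slc6a9 and P4ha2, which PI3Kdi lowered, were at 4.17 ± 0.512, 15.8 ± 1.44 and 6.88 ± 0.444 FPKM with MEKi, within 1.5-fold of the TCR samples.

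A further set was lower with MEKi than with PI3Kdi, and it held receptors that PI3Kdi had raised. Klrd1 was at 119 ± 4.58 FPKM with PI3Kdi and at 29.9 ± 1.33 FPKM with MEKi (difference -1.98, SE 0.11, limma adjusted p = 1.96e-08), Tigit at 202 ± 9.58 and 55.2 ± 3.55 FPKM (-1.87, SE 0.07, adjusted p = 5.07e-10), Ccr2 at 69.9 ± 2.66 and 25.6 ± 1.63 FPKM (-1.45, SE 0.09, adjusted p = 3.51e-08) and Cd28 at 111 ± 1.56 and 47.4 ± 4.31 FPKM (-1.23, SE 0.07, adjusted p = 1.96e-08). Of the early factors, Egr1 was at 60.8 ± 5.32 and 4.47 ± 0.922 FPKM (-3.75, SE 0.12, adjusted p = 1.36e-10), and of the chemokines, Ccl5 at 342 ± 34.8 and 82.3 ± 10.3 FPKM (-2.06, SE 0.11, adjusted p = 1.62e-08).

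Some of the FOXO-linked genes did not separate the inhibitors. Pik3ip1 was at 1.197 ± 0.0321 FPKM with PI3Kdi and at 1.14 ± 0.218 FPKM with MEKi (difference -0.08, SE 0.15, limma adjusted p = 0.743), Txnip at 108 ± 2.3 and 106 ± 1.6 FPKM (-0.03, SE 0.06, adjusted p = 0.741) and Cdkn1b at 7.23 ± 0.327 and 6.95 ± 1.09 FPKM (-0.07, SE 0.11, adjusted p = 0.696). Trp53inp1, by contrast, was higher with PI3Kdi (16.03 ± 1.23 against 8.22 ± 0.482 FPKM, difference -0.95), and Klf2 was higher with MEKi (1.79 ± 0.578 against 4.81 ± 0.356 FPKM, difference 1.42, SE 0.21, adjusted p = 0.000117). Of the mitosis and replication genes, Cenpf was at 4.14 ± 0.723 and 3.74 ± 0.0656 FPKM and Clspn at 6.65 ± 0.336 and 6.21 ± 0.49 FPKM, and neither passed (adjusted p = 0.508 and 0.447).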

How the data were processed

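Paired-end libraries made with the TruSeq Stranded mRNA kit were, per the labels and methods, aligned by the authors with STAR 2.4.2a, counted with Subread 1.5.0 against the RefSeq annotation of mm10, filtered for low counts, scaled by TMM in edgeR and deposited as FPKM on the union of exon lengths. The table holds no counts, so depth was estimated only roughly. Here log2(FPKM + 0.1) of all 11022 genes and 12 samples was fitted with limma 3.58.1 in R 4.3.3 (1 mean per group, variance trend, Benjamini-Hochberg adjustment), and fold changes on this scale understate changes of low genes. The fit was tested on simulated data in which 200 genes changed by more than 2-fold, without paired samples. That simulation does not show how the fit treats smaller changes. Gene names were matched to GENCODE and RefSeq tables by Entrez ID for 10337 genes, by symbol for 2 and by synonym for 635, and 48 were not matched. Same-numbered TCR and TCR+PI3Kdi samples deviated together (correlations 0.451, 0.376 and 0.239 over 9899 genes), and the methods give 3 mice, so the numbers pair the samples.

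The members, the 44 gene lists and the rules were chosen with earlier results of these data known. Named genes were the 12 largest called changes in each direction at a mean of at least 1 FPKM, up to 2 per list and direction by size of change, 6 small changes per direction with the lowest p at a mean of at least 10 FPKM, and genes of the study's question, and genes outside these rules are said to have been named after their values were seen. Some genes these rules select are not reported here. Alternatives were other pseudocounts, a filter on low FPKM, TPM, quantiles, the 6 samples alone, the replicate block, no variance trend, limma's treat and leaving out each sample. Voom on approximate reads was added after seeing the data. The exact permutation test was used for FPKM sums. Promoter sequences are RefSeq, GRCm38.p6.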

Additional observations from a re-analysis of the deposited data

How the results depend on the processing

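The number of genes called at more than 2-fold was 207, and it was 27 with limma's treat, which demands that the change itself exceeds 2-fold, and 90 with a pseudocount of 1, which shrinks changes of low genes. Under the other alternatives it was 139 to 261, and without single samples 195 to 241. The number at an adjusted p alone was 2818, 4366 on the TPM scale (3810 higher and 556 lower) and 2091 to 2826 without single samples. The difference in summed FPKM (TCR+PI3Kdi minus TCR) was -87230 to -62239 without single samples. With the replicate block, 209 genes were called (57 higher and 152 lower, 206 shared with the fit without it) and 3103 passed the adjusted p alone (2783 shared), and it changed the call of 0 of the 162 named genes. Among these genes the change of Gzmb reversed once quantile normalised (0.32), as did the MEKi minus PI3Kdi difference of Ccl4 (0.10). These genes ranked 2 to 5 in the treated samples, where quantile normalisation sets values by rank alone. Against the median of all genes, 0 of the 44 list medians changed side on the TPM scale, which shifts genes together, and 5 did once quantile normalised (costimulatory receptors, granule proteins, cytosolic ribosomal proteins, sterol synthesis and glycolysis). Without single samples 1 to 5 did, all of which had been within 0.071 of it, and that of interferon-inducible genes was 0.14 (without TCR+PI3Kdi replicate 3) to 0.31. Genes under 1 FPKM, 13 of the 55 called higher and 33 of the 152 called lower, rest on few reads, with 5 of these 13 and 7 of these 33 under about 20 reads in every sample.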
